A study of Mus musculus with 4 samples.

Results

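A set of 10 transcriptional regulators that specify lung epithelium or mark its progenitors were followed in whole lungs of embryos that misexpress Nmyc. They are Nkx2-1, Foxa1, Foxa2, Gata6, Sox2, Sox9, Sox11, Foxp1, Foxp2 and Id2. Every probe set annotated with exactly 1 of these symbols was taken, which gave 20 of the 22690 probe sets on the array for 10 genes. The data are signals from 4 Affymetrix arrays, 2 from wild-type and 2 from Sftpc-Nmyc lungs, all labelled as embryonic day 18. In the transgene, mouse Nmyc1 (Mycn in current nomenclature) is fused to a green fluorescent protein under a 3.7 kb human SFTPC promoter, an epithelial one. The transgenic embryos came from pronuclear injection into F2 eggs of C57BL/6J and DBA/2J mice and were taken at day 18.5 per the design text. The strain of the wild-type embryos is not given in the labels. The duplicates are described as biological replicates.

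NKX2-1 is a homeodomain factor that marks the lung field of the foregut and is needed for lung identity. FOXA1 and FOXA2 are forkhead pioneer factors of endoderm and GATA6 is a zinc finger factor. Together with NKX2-1 they bind regulatory regions of the surfactant and secretoglobin genes. During branching the epithelium is divided into SOX2-positive airway stalks and distal tips that carry SOX9 and ID2, and FOXP1 and FOXP2 are forkhead repressors of the distal epithelium.

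Foxa1, Foxa2 and Sox2 were higher in the Sftpc-Nmyc lungs, and none of the 10 genes was lower. Mean signal in the transgenic lungs was 2.24 times that of wild type for Foxa1, 1.65 times for Foxa2. Sox2 was dim, with both wild-type values and 1 of the transgenic values under the brightest Bacillus control (73.4), a guide to background, so its ratio of 2.42 is uncertain. Gata6 and Foxp1 gave estimates near 0. Nkx2-1, Foxp2 and Sox11 had estimates above 0 and Id2 below 0, none of which passed the test. A dim filter, which kept probe sets at or above the 30th percentile of mean signal, left 18 of the 20 probe sets and at least 1 for each gene. Of these 18, 3 passed at a limma adjusted p under 0.05, against 26.4% of all 14266 probe sets tested. Taking the brightest probe set of each gene, 3 of 10 genes were higher, against 13.4% of all genes, and 0 were lower, against 14.1%. After quantile normalization the groups did not overlap for 8 of the 18 probe sets, against 65.9% of all probe sets tested. On the deposited signals, Foxp1 probe set 1421140_a_at and Id2 probe set 1453596_at did not overlap either. Over the 18 probe sets the log2 fold changes had a median of 0.01, and over all tested -0.01, but 9 of the 18 belong to Foxp1 and Id2. Taking the brightest probe set of each gene, the median was 0.55 over the 10 genes and -0.02 over all genes. Fold changes are the transgenic minus the wild-type mean on a log2(signal + 5) scale after quantile normalization, which understates changes of dim genes. Signals of different probe sets depend on probe sequence, so levels were not compared between genes.

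**Figure D1:**
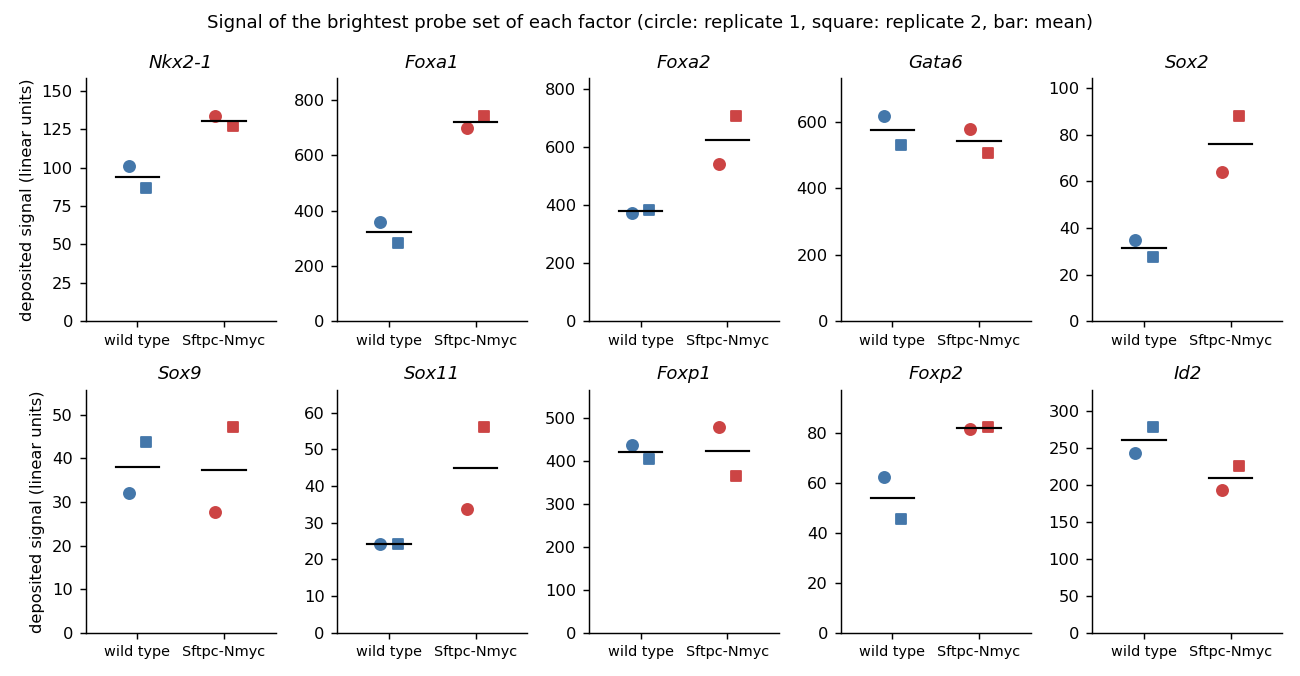
Deposited signal (linear units, axes from 0) of the brightest probe set of each of the 10 factors on the 4 arrays. Foxa1 rose from 359.4 and 285 to 699.8 and 743.7, while the Gata6, Sox9 and Foxp1 points of the 2 groups overlap.

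Several features of the arrays bear on all these values. The misexpressed gene itself was high in the transgenic lungs at 1 probe set for Mycn (1425922_a_at), with 34.7 and 32.1 in wild type and 455.2 and 356 in the transgenic lungs. Another Mycn probe set (1417155_at) was lower, at -1.20 ± 0.27 (log2, SE, limma adjusted p = 0.016). Its transgenic mean lay below the dim filter, so it was tested only through its wild-type values. A further Mycn probe set (1425923_at) was at 0.64 ± 0.45 without passing (limma adjusted p = 0.33). Whether each lies inside the transgene was not determined. General epithelial markers were higher in sum and those of other lung cells lower. The summed signal of 15 epithelial markers ran from 9570 to 10393 in wild type and from 12911 to 13144 in the transgenic lungs. The 10 endothelial markers summed to 6579 and 7301 in wild type against 2509 and 2593, and the 10 mesenchymal markers to 15405 and 16519 against 8836 and 9308. Of the tested markers, 6 of 15 epithelial ones were higher and none lower, 10 of 10 endothelial ones were lower, and 8 of 10 mesenchymal ones were lower. Cardiac markers were lower in 6 of 7, leukocyte markers in 3 of 7 and smooth muscle markers in 2 of 4, with none higher. Of the cardiac markers, Tnni3 and Myh6 were tested only through their wild-type values, as their transgenic means lay below the dim filter. Over all genes, 13.4% were higher and 14.1% lower. Some of these marker calls depended on the setting. With no variance trend, the epithelial Cldn7 (limma adjusted p = 0.0502), Rab25 (0.057) and Spint2 (0.12) did not pass. Nor did the mesenchymal Dcn (0.053) and Tcf21 (0.057), the leukocyte Laptm5 (0.071), and Tagln (0.053) and Acta2 (0.081) of smooth muscle. No marker was listed at 0 on any array. In whole lung, fewer cells of a type and less RNA per cell cannot be told apart. Xist, expressed from the inactive X chromosome, stood at 1708 and 1506 in wild type and at 59.3 and 63.9 in the transgenic lungs, so sex and genotype cannot be told apart here.

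Among the endoderm and lung lineage factors, Foxa1 gave the clearest difference. Its probe set read 359.4 and 285 in the wild-type lungs and 699.8 and 743.7 in the transgenic lungs. Both transgenic values lay far above both wild-type values. The log2 fold change was 1.15 ± 0.16 (SE, n = 2 per group, limma adjusted p = 0.0026, 95% interval 0.78 to 1.52), and 4.64% of all tested probe sets had a higher one. Across 13 alternative settings the Foxa1 estimate ran from 0.98 to 1.32, and it passed in each of them, with limma adjusted p from 0.0018 to 0.021.

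Foxa2, which overlaps in function with Foxa1 in the airway epithelium, was measured at 374.8 and 385 in wild type and at 543.1 and 709.3 in the transgenic lungs. The groups did not overlap, and the transgenic pair differed more between themselves than the wild-type pair. The log2 fold change was 0.69 ± 0.17 (SE, n = 2 per group, limma adjusted p = 0.021, 95% interval 0.30 to 1.07). The call rested on the arrays and on the filter. It was lost without wild-type replicate 1 (0.68, limma adjusted p = 0.091), without wild-type replicate 2 (0.70, 0.093), when transgenic replicate 2 was left out (0.48, 0.11), and with no dim filter (limma adjusted p = 0.052). The liver-enriched relative Foxa3 was dim, at 24.8, 25.8, 15.9 and 23.5, and was not tested.

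Nkx2-1 read 100.9 and 86.7 in wild type and 133.8 and 127.3 in the transgenic lungs. The transgenic values were higher without overlap, by 1.39 times in mean signal, but the difference did not pass (log2 fold change 0.48 ± 0.18, limma adjusted p = 0.090, 95% interval 0.06 to 0.90). The estimate was above 0 under all 13 alternatives and passed under none, with limma adjusted p from 0.064 to 0.26.

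Gata6 was read by 2 probe sets and neither differed beyond its error. The brighter one (1425464_at) stood at 618 and 530.3 in wild type and at 576.8 and 506.4 in the transgenic lungs, with overlapping groups. Its log2 fold change was -0.11 (limma adjusted p = 0.61), and its 95% interval of -0.45 to 0.23 bounds the difference. The dimmer one (1425463_at) read 190.2, 166.9, 181.6 and 173.6 over the 4 arrays, with an interval of -0.38 to 0.37. Thus, of the 4 lineage factors, both Foxa genes were higher, while Nkx2-1 and Gata6 did not pass. Whether the fold changes differ between these genes was not tested. The median log2 fold change of the epithelial markers was 0.31. The Foxa1 estimate lay 0.84 above it, Foxa2 0.38 above, Nkx2-1 0.17 above and Gata6 0.42 below (-0.42). The 15 markers themselves ran from -0.50 (Prom1) to 1.48 (Epcam), and the estimates of all 4 factors lay inside that range. These distances from the median therefore do not set the 4 factors apart from the markers. The part of the shift in epithelial markers in these results was not tested.

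**Figure D2:**
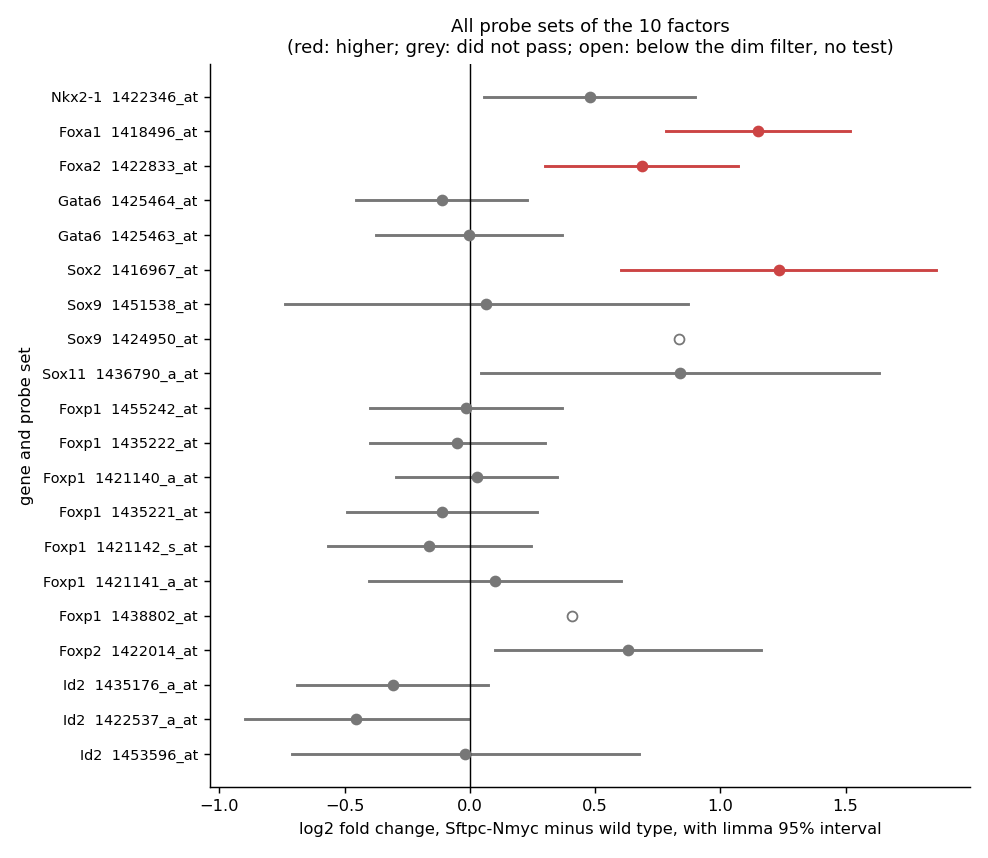
Log2 fold change, Sftpc-Nmyc minus wild type, with the limma 95% interval for the 18 tested probe sets, and as open points without interval for the 2 below the dim filter. The intervals of Foxa1 (0.78 to 1.52), Foxa2 (0.30 to 1.07) and Sox2 (0.60 to 1.86) belong to the 3 that passed.

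Promoter sequences from RefSeq (GRCm38.p6) were matched for 7 of the 10 genes, with 11 start sites in all. The genes with none here were Gata6, Sox9 and Foxp2. The 250 bases upstream of each start were searched on both strands for binding motifs of the MYC partners and of the factors themselves. The E-box CACGTG, bound by MYC and MAX dimers, was in 0 of the 11 windows and in 6.02% of 32851 promoter windows of the same length. The forkhead motif TGTTTAC was in 1 window, that of Foxa1, and in 3.17% of all. The SOX motif AACAAT (9.42% of all) was upstream of Nkx2-1 and of 1 Foxp1 start. The GATA motif AGATAA (9.99% of all) and the NKX2-1 motif CTCAAG (13.3% of all) were both upstream of 1 of the 3 Foxa2 starts, where the matches overlap. Such matches describe letters and not occupied sites. The 3 lineage gene sites are shown because the factors that bind such motifs are in the same set. Each stretch is on the minus strand and reads 5′ to 3′, with the motif in capitals.
Foxa1, chr12:57546235-57546264, motif 141 bases before the start: ttatactgctttGTAAACAaagtgagggcc
Foxa2, chr2:148045632-148045661, motifs 187 bases before the start: cactgttagcCTTGAGATAAtattaacttt
Nkx2-1, chr12:56537005-56537034, motif 114 bases before the start: aaaacaaaaacaAACAATaacgaaaacgct

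Sox2, an HMG-box factor of airway progenitors, had the highest estimate of the 18 tested probe sets. It read 34.9 and 27.8 in wild type and 63.8 and 88.2 in the transgenic lungs, with no overlap. The log2 fold change was 1.23 ± 0.27 (SE, n = 2 per group, limma adjusted p = 0.015, 95% interval 0.60 to 1.86). These signals are low. The highest reading among 27 Bacillus control probe sets, a guide to background, was 73.4, and only transgenic replicate 2 lay above it. The call was lost without transgenic replicate 2 (1.04, limma adjusted p = 0.12), without wild-type replicate 2 (1.13, 0.061) and with no dim filter (limma adjusted p = 0.0505). The 250 bases upstream of Sox2 (chr3:34649745-34649994, plus strand, GRCm38.p6) are shown because this gene had the highest estimate, and none of the 5 motifs is in them.
Sox2 upstream: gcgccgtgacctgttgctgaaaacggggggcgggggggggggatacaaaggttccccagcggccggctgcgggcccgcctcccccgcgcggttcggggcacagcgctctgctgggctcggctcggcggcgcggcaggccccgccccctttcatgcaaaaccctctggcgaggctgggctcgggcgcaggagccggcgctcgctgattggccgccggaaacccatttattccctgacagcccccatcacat

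Sox9, the distal tip counterpart of Sox2, was dim on every array at both of its probe sets. Probe set 1451538_at read 32.1 and 43.7 in wild type and 27.6 and 47.2 in the transgenic lungs. Probe set 1424950_at read 5.3 and 50.6 in wild type and 28.2 and 43 in the transgenic lungs. All 8 readings of Sox9 lay below the highest Bacillus control and the groups overlapped at both probe sets. The tested probe set gave an estimate of 0.07 ± 0.35 (limma adjusted p = 0.91, 95% interval -0.74 to 0.87), an interval wide enough to hold a change of over 1.5 times in either direction. The other probe set fell below the dim filter.

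Sox11, of the SoxC group of progenitor and neural factors, read 24.2 and 24.1 in wild type and 33.7 and 56.1 in the transgenic lungs. The transgenic values were higher without overlap but all 4 were below the highest Bacillus control. Its wild-type mean lay below the dim filter and it was tested only through its transgenic values, so its estimate and interval are tied to that selection. The log2 fold change of 0.84 ± 0.34 did not pass (limma adjusted p = 0.11, 95% interval 0.04 to 1.63). Under 11 alternatives that tested Sox11 the estimate ran from 0.49 to 1.12 and passed under none.

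The SOX family as a whole was described at the brightest probe set of each gene. Of 12 SOX genes tested, 3 were lower and 1 was higher, a share close to the 27.5% called over all genes. The lower ones were Sox17, Sox18 and Sox7, the SoxF factors of endothelium. Sox17 had an estimate of -1.74 ± 0.25 (limma adjusted p = 0.0029), Sox18 of -1.09 ± 0.15 (0.0025) and Sox7 of -1.18 ± 0.22 (0.0072). These genes moved in the same direction as the 10 endothelial markers, 2 of which are Sox17 and Sox18 themselves. Sox12 and Sox4, the SoxC relatives of Sox11, stood at 0.22 ± 0.18 and 0.08 ± 0.15 without passing. For Sox4 the 6 probe sets disagreed, and 1 of them (1419156_at) was lower at -0.83 ± 0.19 (limma adjusted p = 0.017). Sox3, the relative of Sox2, was at 0.60 ± 0.32 without passing. As for Sox11, the wild-type mean of Sox3 lay below the dim filter. Sox3 was thus tested only through its transgenic values, and its estimate is tied to that selection. A dimmer Sox3 probe set, not tested, went the other way, with 21.2 and 8.5 in wild type and 4.6 and 2.4 in the transgenic lungs. Sox10, a factor of neural crest, was at -0.60 ± 0.22, Sox13 at -0.40 ± 0.20 and Sox5 at -0.36 ± 0.26, and none passed. Sox1, Sox6, Sox14, Sox15, Sox21 and Sry were too dim to test.

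Foxp1, which represses airway and alveolar genes with its relatives, was the member with the most probe sets, 7, of which 6 were tested. The brightest (1455242_at) read 438.6 and 405 in wild type and 480 and 366.5 in the transgenic lungs, with the transgenic pair on either side of the wild-type pair. The next (1435222_at) read 387.4, 336.3, 366.2 and 334.2 over the 4 arrays, also with overlap. The 6 log2 fold changes for Foxp1 lay between -0.16 and 0.10, none passed, and their 95% intervals together spanned -0.57 to 0.60. The seventh probe set (1438802_at) was dim, from 7.5 to 13.7, and was not tested.

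Foxp2 read 62.5 and 45.6 in wild type and 81.5 and 82.5 in the transgenic lungs. The groups did not overlap and the transgenic values were close to each other. The log2 fold change was 0.63 ± 0.23 and did not pass (limma adjusted p = 0.080, 95% interval 0.10 to 1.16). Both wild-type readings were below the highest Bacillus control and both transgenic readings above it. Foxp3, a factor of regulatory T cells, was dim and not tested.

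Id2, a helix-loop-helix protein without a basic region that blocks E proteins and marks distal tip progenitors, had 3 probe sets. The brightest (1435176_a_at) stood at 243.1 and 278.1 in wild type and at 193.2 and 225.8 in the transgenic lungs. Probe set 1422537_a_at stood at 199.7 and 273.1 in wild type and at 162.8 and 175.2 in the transgenic lungs. At both, each transgenic reading of Id2 was below each wild-type reading, yet neither passed. The log2 fold changes were -0.31 ± 0.16 (limma adjusted p = 0.21, 95% interval -0.69 to 0.07) and -0.45 ± 0.19 (limma adjusted p = 0.12, 95% interval -0.90 to -0.0076). The third, 1453596_at, was near background at 33.3 to 39.2, with an estimate of -0.02.

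Of the 4 ID genes tested none passed. Id1 and Id3, which respond to BMP signals, were at -0.13 ± 0.13 and -0.09 ± 0.14, and Id4 at 0.46 ± 0.21 at its brightest probe set. The Id4 probe sets disagreed. Another, nearly as bright, was at -0.32 ± 0.20, with 101.9 and 86.1 in wild type and 69.7 and 73 in the transgenic lungs. A dimmer Id4 probe set was at 0.49 ± 0.31, and neither of these passed (limma adjusted p = 0.27 and 0.28). Of 5 GATA genes tested, 1 was lower, Gata2, a factor of blood and endothelium, which fell by 0.92 on the log2 scale (SE 0.15, limma adjusted p = 0.0048). Gata1, of erythroid cells, was at -0.47 ± 0.28, Gata4 at -0.12 ± 0.31 and Gata5 at -0.19 ± 0.23 at its brightest probe set, without passing. A second Gata5 probe set (1450126_at) was lower, at -0.86 ± 0.23 (limma adjusted p = 0.032). Gata3 was too dim to test. Of 4 NKX2 genes tested none passed, with Nkx2-5, a cardiac factor, at -0.33 ± 0.31, Nkx2-6 at -0.31 ± 0.41 and Nkx2-3 at -0.08 ± 0.19. Nkx2-2, Nkx2-4 and Nkx2-9 were too dim to test. Nkx2-1 was the only NKX2 gene tested whose estimate was above 0. Over all genes, 27.5% were called in either direction and 14.1% were lower. Whether the ID, GATA and NKX2 families, with so few genes tested, depart from these shares was not tested.

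**Figure D3:**
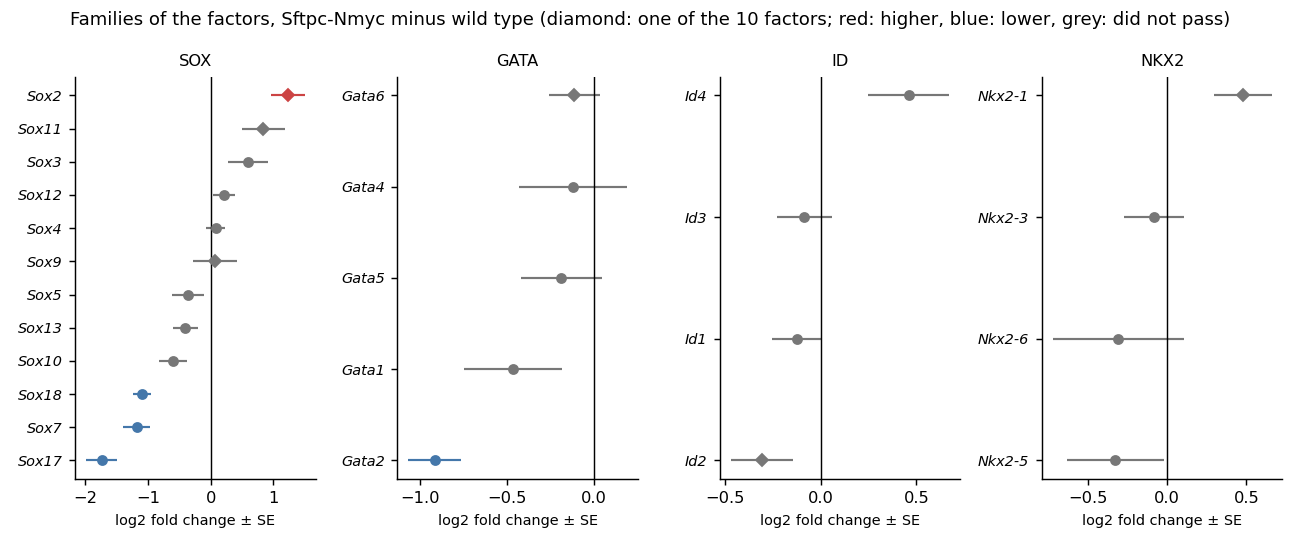
Log2 fold change ± SE, Sftpc-Nmyc minus wild type, of the tested SOX, GATA, ID and NKX2 genes at their brightest probe set, with the factors of the set as diamonds. Sox2 is the 1 SOX gene that was higher, and Sox17, Sox18 and Sox7, at -1.74 to -1.09, are the 3 that were lower.

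Other transcription factors of lung epithelium moved both ways. Of 29 tested, 5 were higher and 7 lower, against 27.5% of all genes in either direction, and the median was 0.04. Grhl2, a grainyhead factor that maintains epithelial junctions, rose by 1.17 ± 0.16 on the log2 scale (limma adjusted p = 0.0023), with 178.8 and 159.4 in wild type and 416.4 and 360 in the transgenic lungs. Tead2, a DNA-binding partner of YAP, was at 1.12 ± 0.20 (limma adjusted p = 0.0070). The other 3 that were higher, Hes1, Irx2 and Klf5, were named after their values were seen, and their estimates were 0.75, 0.65 and 0.47. Cebpa, which promotes alveolar type II maturation, stood at 1368 and 1427 in wild type and at 551 and 458.2 in the transgenic lungs, and its estimate was -1.50 ± 0.13 (limma adjusted p = 0.00061). Etv5, an FGF-responsive factor, was at -1.30 ± 0.21 (limma adjusted p = 0.0050), Klf4 at -1.06 ± 0.17 (0.0048) and Nr3c1, the glucocorticoid receptor, at -0.82 ± 0.15 (0.0070). The calls of Tead2 (0.999, limma adjusted p = 0.053) and Nr3c1 (-0.71, 0.055) were lost without wild-type replicate 2. The list had 2 higher genes without either wild-type replicate or without transgenic replicate 1, 3 without transgenic replicate 2, and 4 lower ones without wild-type replicate 2.

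Known partners and cofactors of the 10 factors split as well: of 12 tested, 2 were higher and 2 lower, close to the 27.5% called over all genes in either direction. Hdac2, a histone deacetylase recruited by FOXP proteins, was higher at 1.08 ± 0.19 (limma adjusted p = 0.0058), and Mta1, of the same corepressor complex, at 0.57 ± 0.16 (0.037). Tcf4, an E protein and binding partner of ID2, was at -0.59 ± 0.14 (limma adjusted p = 0.022), and Wwtr1, the coactivator TAZ that binds NKX2-1, at -0.70 ± 0.20 (0.037). Gatad2b and Tcf3, a second E protein, did not pass, at -0.56 ± 0.18 and 0.42 ± 0.15. The call of Tcf4 was lost whichever array was left out, with estimates of -0.65 to -0.52. Those of Mta1 (0.42 to 0.58) and Wwtr1 (-0.88 to -0.46) were lost without either wild-type replicate or without transgenic replicate 2.

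The differentiation genes that NKX2-1, FOXA and GATA factors are known to activate, or that mark the cells they specify, were lower. Of 12 tested, 11 were lower and none higher, against 14.1% lower and 13.4% higher over all genes. The median was -2.25 against -0.02 over all genes. Sftpb, a surfactant protein, read 4516 and 4792 in wild type and 886.5 and 590.9 in the transgenic lungs, with an estimate of -2.85 ± 0.18. Sftpa1 was at -3.18 ± 0.27, the lipid transporter Abca3 at -2.36 ± 0.21, the protease Napsa at -4.27 ± 0.27 and the water channel Aqp5 at -4.35 ± 0.17. The transgenic mean of Aqp5, with readings of 20.7 and 22.5, lay below the dim filter. Aqp5 was thus tested only through its wild-type values, and its estimate is tied to that selection. Sftpc, whose human promoter drives the transgene, was at -0.997 ± 0.10. Thus Foxa1 and Foxa2 were higher in the same lungs in which 11 of these 12 genes were lower, while Nkx2-1 and Gata6 did not pass in either direction. The count was 8 to 12 over the alternatives. With median centring, Hopx (-0.27, limma adjusted p = 0.34), Scgb3a2 (-0.28, 0.086) and Scgb1a1 (-1.28, 0.060) did not pass, against estimates of -0.59, -0.61 and -1.58 here. Nor did they with no dim filter (limma adjusted p = 0.12, 0.052 and 0.088). With no variance trend, Hopx (0.11) and Scgb1a1 (0.061) did not pass, and with no quantile step Hopx did not (-0.34, 0.215). The deposited Hopx signals of the groups overlapped, at 5179 and 4396.8 in wild type and 4606.1 and 3076.3 in the transgenic lungs. Hopx (-0.75 to -0.47) and Scgb1a1 (-1.69 to -1.52) also did not pass without either wild-type replicate, nor Hopx without transgenic replicate 2 (-0.39). The 1 that did not pass in the main setting was Wnt7b, an epithelial ligand, at -0.48 ± 0.15.

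Of 13 tested genes of distal tip progenitors, among them Sox9 and Id2, none was higher and 4 were lower, with a median of -0.36. The lower ones were Ctsh at -2.50 ± 0.15, the FGF feedback phosphatase Dusp6 at -1.84 ± 0.23, Etv5 at -1.30 ± 0.21 and the ligand Bmp4 at -0.92 ± 0.16, with limma adjusted p from 0.00017 to 0.0057. Igf2bp1, an RNA-binding protein of fetal tissues, was at 0.76 ± 0.25 without passing, and passed without transgenic replicate 1 (1.02, limma adjusted p = 0.044). The 4 called genes make up a share close to the 27.5% called over all genes.

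**Figure D4:**
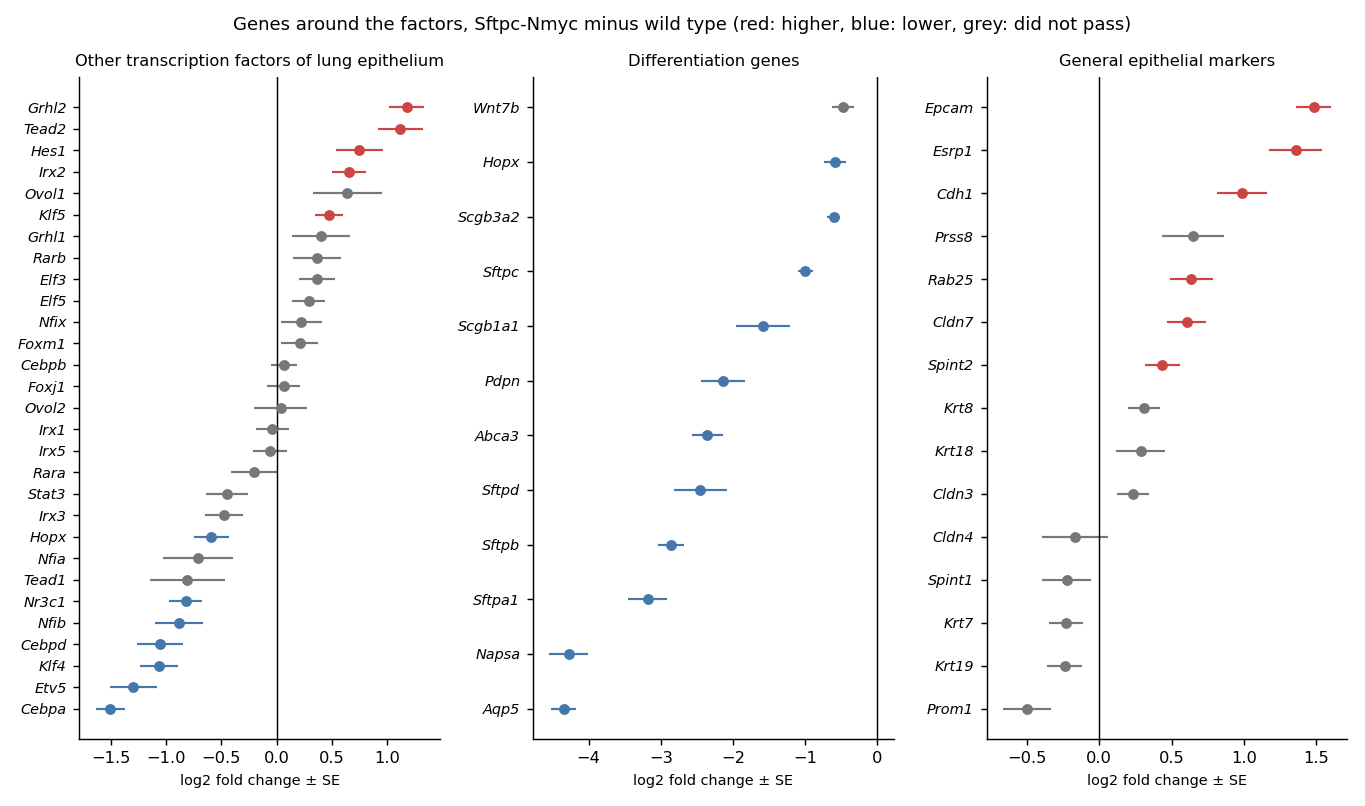
Log2 fold change ± SE, Sftpc-Nmyc minus wild type, of the tested genes of 3 lists at their brightest probe set. Other transcription factors lie on both sides of 0, 11 of 12 differentiation genes were lower, and 6 of 15 epithelial markers were higher.

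The epithelial markers that were higher included Epcam at 1.48 ± 0.12, the splicing factor Esrp1 at 1.36 ± 0.18 and Cdh1, E-cadherin, at 0.99 ± 0.17. The list went both ways in its estimates: those of Prom1, Krt19, Krt7, Spint1 and Cldn4 were below 0, from -0.50 to -0.17, without passing. Several of the 10 factors are also made outside lung epithelium, and markers of such cells were checked. Markers of stratified epithelium, where Sox2 is expressed, were below the highest Bacillus control on every array except Krt15, and their sum was 185.5 and 131.9 in wild type against 310.8 and 247. Krt15 was higher at 1.13 ± 0.29 (limma adjusted p = 0.026). It did not pass once transgenic replicate 1 (0.75, limma adjusted p = 0.12) or wild-type replicate 2 (0.87, 0.14) was left out. Markers of cartilage, where Sox9 is expressed, summed to 206.3 and 167.5 against 216.2 and 203.1. Liver markers, where Foxa genes are expressed, summed to 147.9 and 193.9 against 65.1 and 87.4. Neural and neural crest markers, where Sox11 is expressed, summed to 368.5 and 351.1 against 177.3 and 236.6. Of the measured markers, only 2 of 6 for cartilage, 1 of 5 for liver and 3 of 5 for neural cells were bright enough to test. The liver sum was mostly Alb, at 98.4 and 104.3 against 36.4 and 57.9. Among the neural markers Stmn2 was lower, at -1.72, while Uchl1 was at 0.44 without passing. These sums are therefore weak guides to cell content. The part of stratified epithelial, cartilage, liver and neural cells in the results for Sox2, Sox9, Sox11 and the Foxa genes was not tested. Endothelial, mesenchymal and cardiac markers had median log2 fold changes of -1.43, -1.03 and -2.32. The part of those cells in the results for Gata6, Foxp1 and Id2 was not tested either. Whole-lung values of the 10 factors therefore do not give their levels in epithelium.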

How the data were processed

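The deposited values are linear intensities of 22690 probe sets on 4 whole-lung arrays. How the authors computed and scaled them is not stated per the labels, but a mean trimmed by 2% at each end is 150.05 on every array. Names come from the platform's annotation, where 20380 have 1 symbol, 691 several and 1555 none. By gene identifier 20351 matched a RefSeq table. Values under 1 were set to 1, 5 was added, and log2 values were quantile normalized without the 64 control probe sets.

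All probe sets with 1 symbol at or above the 30th percentile of mean log2 value (14266) entered a fit by group alone in limma 3.58.1 under R 4.3.3 (lmFit, then eBayes with a trend). The p-values are two-sided and Benjamini-Hochberg adjusted over all of them, and ± is the limma standard error. For the lists the brightest probe set stood for a gene. The code was tested on simulated data. No test over the list of factors was made, and exact permutation of 2 against 2 arrays cannot go below p = 0.333.

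The factors and lists were chosen with earlier results of these data known. Genes named were all factors and their families, up to 6 genes of each context list by moderated statistic with up to 2 called against the list's median, and up to 3 of each marker list. The number of arrays limits precision. The alternatives were other scalings, offsets, filters, 1 probe set per gene, no variance trend, a replicate block and leaving out each array. Same-numbered arrays did not deviate together (r = -0.04), so the numbers were not taken as pairs.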

Additional observations from a re-analysis of the deposited data

How the results depend on the processing

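The count of probe sets called over all tested was 2062 to 2749 with 1 array left out, and within 1.5 times of 3768 under the other alternatives, the replicate block included (3179). Of the factors' probe sets 1 was called with no dim filter, and 1 to 3 with 1 array left out. With no dim filter, which also added 6114 dim probe sets to the adjustment, Foxa2 (0.69, limma adjusted p = 0.052) and Sox2 (1.23, 0.0505) did not pass. Foxa2 also did not pass with no variance trend (0.69, limma adjusted p = 0.062). With 1 array left out, the Foxa2 estimate ran from 0.48 to 0.89 and that of Sox2 from 1.04 to 1.40. Foxa1 passed throughout. Foxa2, Sox2, Nkx2-1, Foxp2 and Sox11 stayed above 0 in every alternative that tested them, and the 2 brighter Id2 probe sets below 0. The Gata6 and Sox9 estimates and 4 of the 6 tested for Foxp1 changed sign in some without passing. At a dim filter of the 50th percentile, Sox2, Sox9, Sox11, Foxp2 and the dimmest Id2 probe set were not tested. The replicate block left the same 3 factors called. It ended the calls of Hes1, Mta1 and Spint2 and added Col1a1 among the context genes, and the cause was not tested. No called value reversed. Signal over background limits Sox2, Sox9 and Sox11, for which 1, 0 and 0 of the arrays exceeded the highest Bacillus control.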

Other observations

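Some transcription factors of epithelium were below the dim filter and have values only. Those given here were chosen after their values were seen. Ehf, an ETS factor of epithelia, read 4.7 and 4.2 in wild type and 29.1 and 21.1 in the transgenic lungs. Trp63, a factor of basal cells, read 16.1, 8.1, 17 and 27.4 over the same order of arrays, and the FGF-responsive factor Etv4 read 8.3, 4.9, 3.9 and 3.9. All of these lay below 73.4, the highest Bacillus control.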
